A study of Mus musculus with 6 samples.

Results

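The genes described here are the interferon-stimulated genes and the interferon-inducible GTPases, taken as a list of 51 symbols and found by matching their NCBI Gene IDs to the deposited expression table. Of the 51, 49 were measured, out of 18446 genes in all, and 45 had a mean of 1 FPKM or more over the 6 libraries. Levels are in FPKM throughout, that is, sequenced fragments corrected for transcript length and for library depth. The GTPases Mx1 and Mx2 were not analysed here. The 4 members below the mean of 1 FPKM were Oasl1, Ifitm1, Rsad2 and Ifi44. Within the list, the 15 GTPases of the Gbp and Irg families were set against the 9 genes of the Ifit, Oas and Isg15 group.

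The cells were naive CD4+ T cells, which have yet to meet their antigen, gated as CD44-low and CD62L-high from spleen and lymph nodes of C57BL/6 mice aged 6 to 8 weeks. The mice were wild type (WT) or had the genotype given as Zak-/-, which another label describes as a deficiency conditional to T cells; the driver of the deletion and the number of mice per library are not stated in the sources used here. Zak is a MAP kinase kinase kinase encoded by Map3k20. For each genotype 1 library was made from resting cells (0 h) and 1 each from cells kept for 6 h and 48 h with anti-CD3 and anti-CD28, antibodies that engage the T cell receptor complex and its costimulatory receptor. With 6 libraries and no replicates, every comparison is a difference between 2 libraries and no p-value is given. A difference was counted when it reached 2-fold on log2(FPKM+1), a scale that understates the change of low genes, and folds below are on that scale.

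Interferons are cytokines that put cells into an antiviral state. Type I interferon acts through IFNAR and a complex that includes STAT2 and IRF9 and binds the interferon-stimulated response element (ISRE), whereas interferon gamma acts through IFNGR and the gamma-activated site (GAS). The Ifit proteins, the oligoadenylate synthetases (Oas) and the ubiquitin-like protein ISG15 are classical products of the ISRE pathway. Guanylate-binding proteins (Gbp) and immunity-related GTPases (Irg) act on the vacuoles of intracellular microbes and are known as strong targets of interferon gamma and IRF1.

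The libraries summed to between 496045 and 546113 FPKM over all genes. Map3k20 stood at 0.17 FPKM in WT cells and 0.10 in the others at rest, then at 0.19 and 0.10 by 6 h, then at 1.35 and 1.61 by 48 h. At 48 h its level went against the label. The second genotype is therefore called labelled Zak-deficient, and any higher or lower value between the genotypes depends on the label being right. T cell markers were high in every library, with Cd3e between 230.8 and 288.5 FPKM and Cd4 between 217.6 and 357.2. The 9 myeloid markers summed to 14.2 FPKM in WT and 11.8 under the label Zak-deficient at 0 h, to 9.51 and 6.75 at 6 h, and to 1.26 and 2.37 at 48 h, with Cd14 at no more than 0.04. The 6 NK cell markers summed to 42.7 and 40.4 FPKM at 0 h, 25.0 and 18.4 at 6 h, and 2.99 and 3.11 at 48 h, with Klrd1 at 40.4 of the 42.7 in resting WT cells. The 8 B cell markers summed to between 3.70 and 8.83 and the 5 plasmacytoid dendritic cell markers to between 1.18 and 2.38, with Klk1 and Cox6a2 at 0 in 5 of the 6 libraries. A fragment in a transcript of 1 kb was worth about 0.06 FPKM in each library, judged from the steps between low values.

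The promoters of the GTPases and of the Ifit, Oas and Isg15 genes are shown because both groups carry interferon motifs, in arrangements that differ only in part. RefSeq promoter windows (GRCm38.p6, the mm10 assembly), which run from 250 bases before to 50 bases after a gene start, were found for 37 of the 51 members. An ISRE was searched as TTTC followed, after any 2 bases, by TTTC (on the other strand GAAA, any 2 bases, GAAA), and a GAS as TTCNNNGAA, which reads the same on both strands and where N is any base. Matches that overlap were all counted. An ISRE match was present in 9 of 10 GTPases with a window, in 5 of 8 genes of the Ifit, Oas and Isg15 group, and in 3.44% of all 32851 windows. A GAS match was present in 6 of the 10 GTPases, in 2 of the 8, and in 8.30% of all windows. Both motifs together were found in 6 of 10 and 1 of 8, and in 0.454% of all windows. The groups overlapped: the GTPases Gbp2, Gbp3 and Irgm1 held ISRE matches without a GAS, whereas Oas1a held both motifs and Ifit2 a GAS alone. These are letter matches, not measured binding.

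In 4 Irg genes on chromosome 11 a GAS stood just ahead of an ISRE with the same spacing, on the strand of the gene. The stretches follow, 5′ to 3′ along the gene, with GAS and ISRE letters in capitals. They lie at chr11:58199496-58199546 (+) for Igtp, chr11:58214887-58214937 (+) for Irgm2, chr11:48992299-48992349 (-) for Tgtp1 and chr11:49064258-49064308 (-) for Tgtp2.
Igtp: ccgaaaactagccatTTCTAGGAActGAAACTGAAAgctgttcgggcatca
Irgm2: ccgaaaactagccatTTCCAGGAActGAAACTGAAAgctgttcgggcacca
Tgtp1: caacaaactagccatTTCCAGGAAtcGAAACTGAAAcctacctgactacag
Tgtp2: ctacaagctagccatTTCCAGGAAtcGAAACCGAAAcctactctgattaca

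The ISRE of these genes began between 34 bases (Igtp) and 77 bases (Tgtp1) before the gene start. As a pattern chosen after these sequences were seen, TTCNNNGAA, any 2 bases, GAAA, any 2 bases and GAAA, on either strand, the pair occurred in 5 of 32851 windows (0.0152%). The other of the 5 belonged to Gm12185, a gene model on chromosome 11. Igtp and Irgm2 agreed at 49 of 51 letters and Tgtp1 and Tgtp2 at 39 of 51, while pairs across these couples agreed at 34 to 36, so the genes share sequence and are not separate instances of the pattern.

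The listed Gbp genes of the chromosome 3 cluster carried an ISRE without that partner. Those of Gbp2 at chr3:142620589-142620628 (+), with the ISRE in capitals, and of Gbp7 at chr3:142530215-142530307 (+), with 2 GAS matches ahead of the ISRE, are shown.
Gbp2: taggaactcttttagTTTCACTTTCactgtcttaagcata
Gbp7: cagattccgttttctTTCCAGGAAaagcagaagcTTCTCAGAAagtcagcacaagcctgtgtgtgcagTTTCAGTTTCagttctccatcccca

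In the other group, Ifit1 at chr19:34640770-34640828 (+) and Ifit3 at chr19:34583358-34583431 (+) held a pair of ISRE matches and Isg15 at chr4:156200860-156200911 (-) held 3 that overlap, with no GAS in these windows.
Ifit1: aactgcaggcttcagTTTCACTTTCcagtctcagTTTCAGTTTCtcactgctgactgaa
Ifit3: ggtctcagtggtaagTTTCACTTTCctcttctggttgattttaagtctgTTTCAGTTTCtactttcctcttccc
Isg15: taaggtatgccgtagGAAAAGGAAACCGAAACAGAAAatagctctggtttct

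**Figure D1:**
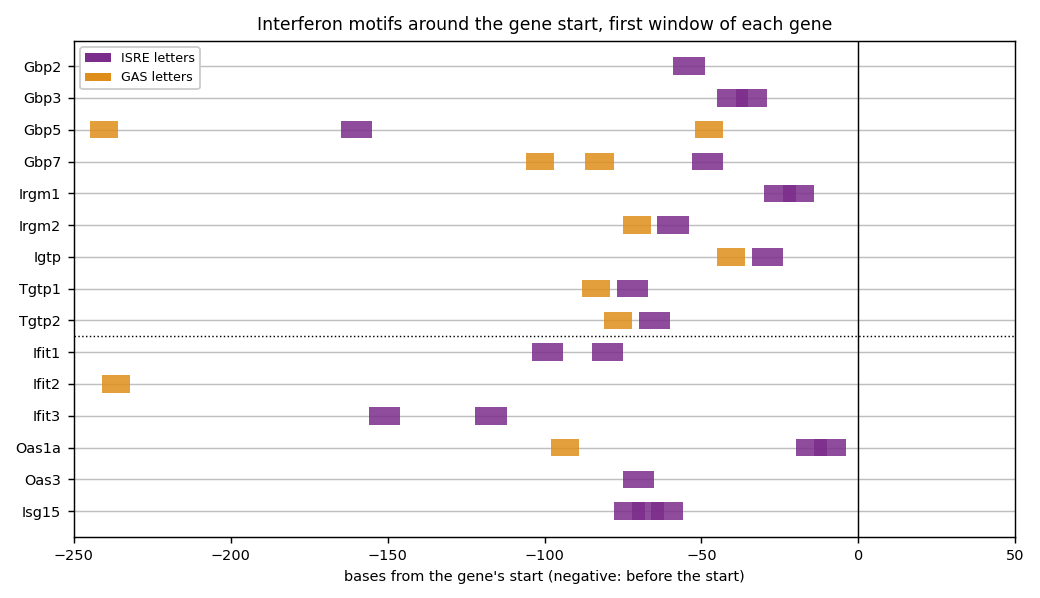
ISRE (purple) and GAS (orange) letter matches by distance in bases from the gene start, for GTPases above the dotted line and for Ifit, Oas and Isg15 genes below it that hold a match. In Irgm2, Igtp, Tgtp1 and Tgtp2 the GAS lies directly before the ISRE; Ifit1, Ifit3, Oas3 and Isg15 hold ISRE matches alone.

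Over 48 h of stimulation the interferon list split. In WT 8 of the 45 members rose at least 2-fold (17.8%, where 17.8% of all 10347 genes did) and 10 fell (22.2%, against 12.3% of all genes). In the libraries labelled Zak-deficient 6 rose (13.3%, against 18.4%) and 9 fell (20.0%, against 12.0%). Of the 15 GTPases 5 rose and none fell in WT, whereas of the 8 Ifit, Oas and Isg15 genes of mean 1 FPKM or more none rose and 5 fell. Under the label Zak-deficient 3 of the 15 GTPases rose and 1 fell. That rise, 20.0%, was near the 18.4% of all genes. Of the 8 Ifit, Oas and Isg15 genes none rose and 4 fell under this label. In WT the median log2 change was 0.18 for the GTPases and -1.22 for the other group, beside 0.00 over all genes, a gap of 1.39. In the libraries labelled Zak-deficient the medians were -0.06 and -1.07, beside 0.06 over all genes, a gap of 1.01. With a pseudocount of 5 FPKM the gaps were 0.64 and 0.31, since most Ifit and Oas genes had under 5 FPKM.

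The Gbp genes that rose belonged mostly to the chromosome 3 cluster. Gbp2 (chr3:142620663-142638008) stood at 12.2 FPKM in WT and 11.2 under the label Zak-deficient at 0 h, at 24.2 and 14.4 at 6 h, and at 107.9 and 65.9 at 48 h. It was 8.26-fold above rest at 48 h in WT and 5.50-fold under the other label, the highest 48 h level of any GTPase in WT. Gbp5, which promotes inflammasome assembly, stood at 2.58 and 2.51 FPKM at 0 h, 8.13 and 6.71 at 6 h, and 29.0 and 21.2 at 48 h. It was the only member to rise 2-fold by 6 h under both labels, by 2.55-fold and 2.20-fold. Gbp3 went from 2.50 and 2.96 FPKM at 0 h to 4.73 and 4.05 at 6 h and 8.43 and 7.20 at 48 h. The fourth listed gene of this cluster, Gbp7, did not follow them, at 6.86 and 7.34 FPKM at rest, 7.41 and 6.11 at 6 h, and 4.75 and 3.44 at 48 h. Gbp2b was measured but is not on the list.

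On chromosome 5 the listed Gbp genes were flatter. Gbp6 stood at 3.27 and 3.25 FPKM at 0 h, 7.69 and 5.05 at 6 h, and 10.7 and 7.25 at 48 h, 2.73-fold above rest in WT and 1.94-fold under the other label. Gbp4 was at 34.9 and 31.3 FPKM at rest, 40.7 and 30.2 at 6 h and 39.5 and 30.0 at 48 h. Gbp8 and Gbp9 were highest at rest in both genotypes, Gbp9 at 30.6 and 25.1 FPKM against 22.1 and 18.3 at 48 h. These genes share sequence: 61.1% of the 24-base sequences in Gbp6 transcripts also occurred in another gene, 36.0% of those of Gbp8, 23.5% of those of Gbp9 and 17.4% of those of Gbp4, so reads could be divided among them.

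Of the 7 Irg GTPases, 4 were highest at 6 h in WT (Irgm1, Igtp, Tgtp1 and Tgtp2), 2 at 48 h (Iigp1 and Ifi47) and Irgm2 at rest. Tgtp2 was at 8.36 FPKM in WT and 7.72 under the label Zak-deficient at 0 h, 19.2 and 9.61 at 6 h, and 7.48 and 3.86 at 48 h. Tgtp1 was at 7.95 and 5.74, then 17.99 and 10.6, then 14.97 and 8.95. The pair is uncertain, since 90.5% of the 24-base sequences of Tgtp2 were also in Tgtp1. In WT both rose at 6 h, by 2.16-fold and 2.12-fold; under the other label neither reached 2-fold, at 1.22-fold and 1.72-fold. Iigp1, an effector against intracellular parasites, was at 1.91 and 1.41 FPKM at rest, 6.11 and 3.31 at 6 h, and 6.32 and 2.96 at 48 h. On log2(FPKM+1) it rose in WT at both times, by 2.44-fold and 2.52-fold, with 1.79-fold and 1.64-fold under the other label. In plain FPKM, without the added 1, it was over 2-fold above rest under both labels at both times.

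Irgm1, which encodes one of the regulatory Irg proteins that guard host membranes, stood at 15.3 FPKM in WT and 17.8 under the label Zak-deficient at 0 h. It was at 23.2 and 16.1 at 6 h, and at 14.5 and 11.1 at 48 h. Irgm2 declined from 24.4 and 22.4 FPKM at 0 h to 22.9 and 19.0 at 6 h and 12.2 and 10.01 at 48 h, which reached 2-fold only under the label Zak-deficient (2.13-fold against 1.93-fold). Igtp (also known as Irgm3) was at 51.1 and 45.4, then 61.2 and 46.4, then 56.8 and 37.9. Ifi47 (Irgd), the most abundant Irg gene, was at 58.6 and 49.6, then 71.2 and 51.8, then 85.5 and 71.0. For these genes the 2 libraries of one time lay closer together at rest than after stimulation, and at 6 h and 48 h the WT value was the higher each time.

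**Figure D2:**
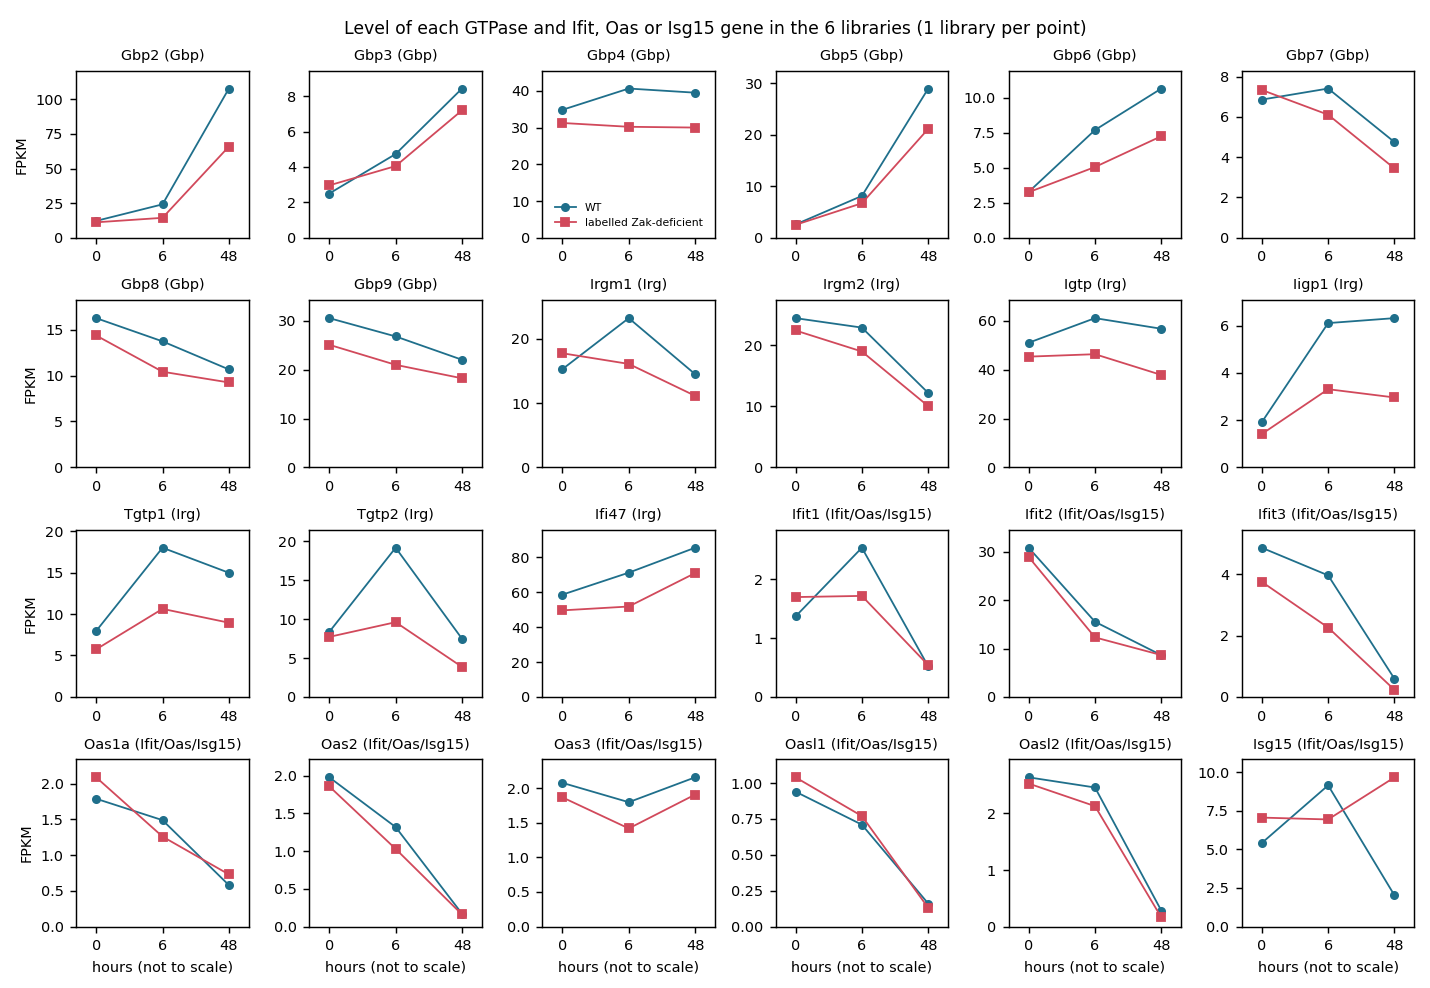
FPKM of the 15 GTPases and the 9 Ifit, Oas and Isg15 genes at 0, 6 and 48 h in WT (blue circles) and in the libraries labelled Zak-deficient (red squares), 1 library per point. Gbp2, Gbp3, Gbp5 and Gbp6 climb with time and Ifit2, Ifit3, Oas2 and Oasl2 decline under both labels, while the red points of every GTPase lie below the blue ones at 6 h and 48 h.

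The products of the Ifit and Oas genes bind viral RNA or make the activator of RNase L. Ifit2, Ifit3, Oas2 and Oasl2 fell by 48 h under both labels. Ifit2, the most abundant, stood at 30.9 FPKM in WT and 29.0 under the label Zak-deficient at 0 h, 15.6 and 12.3 at 6 h, and 8.64 and 8.66 at 48 h. It fell by 48 h, 3.31-fold and 3.10-fold. Ifit3 was at 4.86 and 3.75 FPKM at rest, 3.96 and 2.26 at 6 h, and 0.59 and 0.23 at 48 h. The last values stand for only about 17 and 6 fragments, and 66.8% of its 24-base sequences are shared with Ifit3b. Ifit1 was at 1.37 and 1.70, then 2.54 and 1.72, then 0.52 and 0.54. The Ifit genes thus ended at nearly the same level under both labels, save Ifit3.

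Oasl2 was at 2.64 FPKM in WT and 2.53 under the label Zak-deficient at rest and at 0.28 and 0.16 at 48 h, and Oas2 at 1.98 and 1.86 and then 0.17 and 0.16. Both fell under both labels. Oas1a, with 73.2% of its 24-base sequences in Oas1g, was at 1.79 and 2.09 FPKM at 0 h and 0.58 and 0.73 at 48 h, and Oasl1 at 0.94 and 1.04 and then 0.16 and 0.13. Oas3 did not decline, with all 6 values between 1.42 and 2.16 FPKM. The myeloid and NK cell marker sums given above declined over the same times; their part in these changes was not tested. In bulk libraries fewer cells of a type and less RNA per cell cannot be told apart.

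Isg15, whose product is conjugated to proteins in infected cells, was the only member of mean 1 FPKM or more that differed 2-fold between the labels on log2(FPKM+1). With a pseudocount of 0.1 FPKM, 3 members were also 2-fold lower under the label Zak-deficient at 48 h. Its level was 5.41 FPKM in WT and 7.06 under the label Zak-deficient at 0 h, 9.15 and 6.94 at 6 h, and 2.02 and 9.67 at 48 h. The 48 h values, about 26 against 115 fragments, differed 3.53-fold. The library labelled Zak-deficient was thus the lower at 6 h and the higher at 48 h, at which the 7 other genes of its group with a mean of 1 FPKM or more lay between 1.29-fold below and 1.09-fold above WT. Of these, Ifit1, Ifit3, Oas1a, Oas2 and Oasl2 were under 1 FPKM in both 48 h libraries, where this scale understates any difference. At 48 h 1.80% of all genes were 2-fold higher and 0.435% lower under that label. Of the genes that add or remove ISG15, the protease gene Usp18 was at 3.93 and 4.16 FPKM at rest, 4.18 and 3.04 at 6 h, and 1.85 and 1.62 at 48 h. The ligase gene Herc6 was at 6.40 and 6.20, then 3.20 and 3.31, then 3.99 and 3.74.

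**Figure D3:**
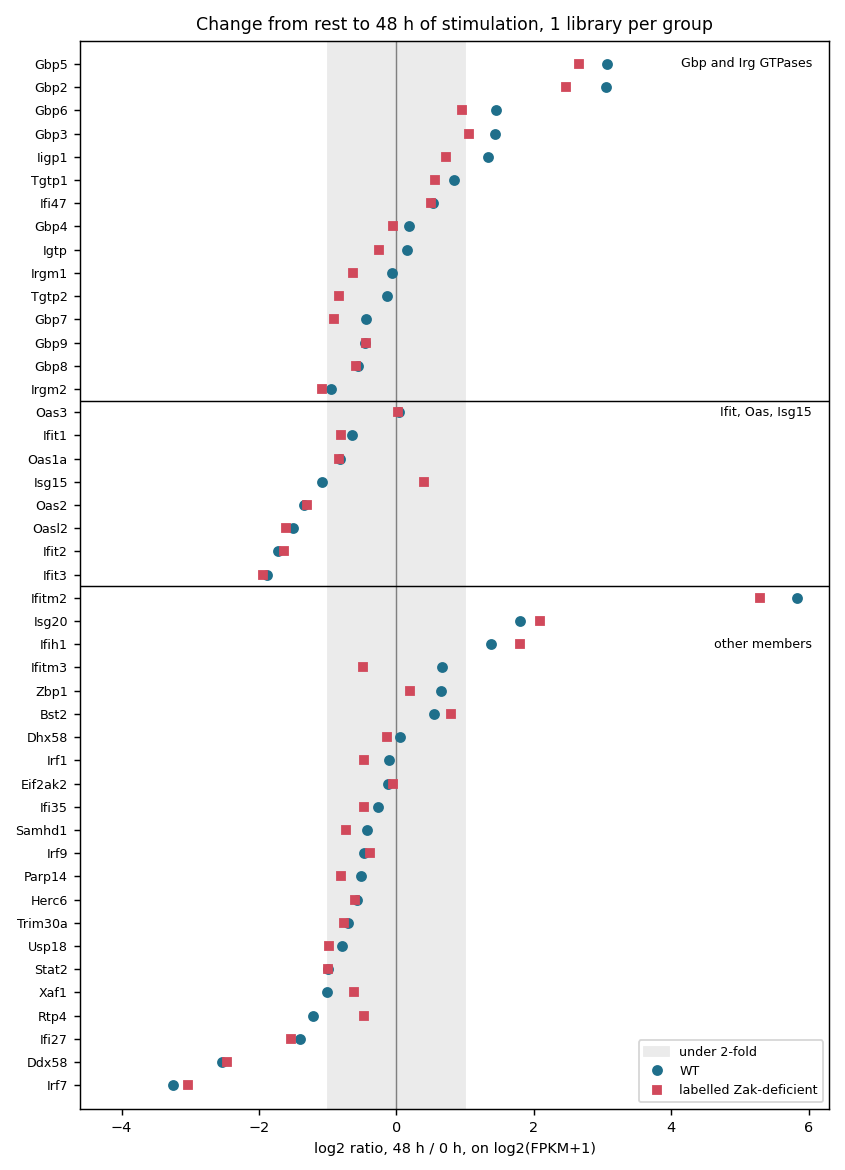
Log2 ratio of the 48 h to the 0 h library on log2(FPKM+1) for the 45 members of mean 1 FPKM or more, in WT (blue circles) and under the label Zak-deficient (red squares); the grey band is under 2-fold. Gbp5 and Gbp2 lead the GTPases, Ifit3 and Ifit2 are lowest in their group, and Isg15 is the point where the labels part most.

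The transcription factors of the pathway were below their resting level at 48 h under both labels. Irf7, which amplifies type I interferon, stood at 17.9 FPKM in WT and 15.6 under the label Zak-deficient at 0 h, 12.2 and 10.5 at 6 h, and 0.98 and 1.02 at 48 h, a fall of 9.56-fold and 8.20-fold. Stat2 went from 12.7 and 12.6 FPKM at rest to 9.14 and 9.49 at 6 h and 5.90 and 5.80 at 48 h, 1.99-fold lower in WT and just past 2-fold lower under the other label. Irf9 was at 20.9 and 19.7, then 26.6 and 22.0, then 14.8 and 14.9. Irf1, which drives many GTPase genes, was at 50.6 and 49.97 FPKM at 0 h, 60.8 and 47.8 at 6 h, and 46.7 and 35.7 at 48 h. Irf1 alone of the 4 factors was over 1.25-fold lower under the label Zak-deficient at 6 h (1.26-fold) and at 48 h (1.30-fold), and its values at rest differed 1.01-fold.

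Nucleic acid sensors moved in opposite directions. Ddx58, which encodes RIG-I, was at 14.95 FPKM in WT and 14.85 under the label Zak-deficient at 0 h, 9.43 and 8.32 at 6 h, and 1.75 and 1.86 at 48 h, and fell 5.80-fold and 5.54-fold. Ifih1, which encodes the related sensor MDA5, was at 2.85 and 2.20, then 3.73 and 4.10, then 8.99 and 10.2, and rose 2.59-fold and 3.48-fold. Dhx58, the third of this helicase family, held all 6 values between 1.83 and 2.21 FPKM. The kinase gene Eif2ak2 (PKR) stood between 5.50 and 7.44 FPKM. Zbp1, a sensor of Z-form nucleic acid, was at 14.4 and 15.7 FPKM at rest, 16.4 and 11.9 at 6 h, and 23.2 and 18.1 at 48 h.

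Ifitm2, a membrane protein that blocks virus entry, had the greatest change of the list. Its level was 0.70 FPKM in WT and 1.37 under the label Zak-deficient at 0 h, 2.81 and 2.57 at 6 h, and 95.6 and 91.6 at 48 h. Its neighbours on chromosome 7 did not follow: Ifitm1 ranged from 0.47 to 1.61 FPKM and Ifitm3 from 0.89 to 2.33. Isg20, a 3′ exonuclease, rose from 2.61 FPKM in both genotypes at rest to 11.5 in WT and 14.3 under the other label at 48 h. Bst2 (tetherin) was at 20.4 and 18.4, then 27.2 and 26.9, then 30.1 and 32.6. Samhd1, which depletes deoxynucleotides in resting cells, had the highest level of the list, between 124.6 and 207.0 FPKM. Rsad2 (viperin) stayed at or under 0.39 FPKM and Ifi44 at or under 0.15, so neither could reach 2-fold on log2(FPKM+1). In plain FPKM Rsad2 went from 0.38 at rest to 0.09 at 48 h in WT, about 23 and 6 fragments. Under the label Zak-deficient it went from 0.33 to 0.27, about 20 and 16 fragments.

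The remaining members declined or were flat. Ifi27 was at 34.8 FPKM in WT and 35.6 under the label Zak-deficient at 0 h, 30.7 and 26.6 at 6 h, and 12.6 and 11.6 at 48 h, and fell 2.64-fold and 2.89-fold. Rtp4 was at 3.50 and 3.10, then 4.81 and 3.18, then 0.94 and 1.96, and Xaf1, a pro-apoptotic partner of XIAP, at 5.47 and 5.09, then 6.36 and 4.62, then 2.20 and 2.98. Both fell 2-fold by 48 h in WT only by this rule; the difference between the labels was not tested. Ifi35 (19.5 to 28.5 FPKM), Parp14 (6.47 to 12.9) and Trim30a (15.2 to 27.4) did not reach 2-fold at 48 h under either label.

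At rest no member differed 2-fold between the labels, beside 0.222% of all genes higher and 0.0483% lower. Of the 15 GTPases 12 were lower under the label Zak-deficient and 51.9% of all genes were. The GTPase median was 1.09-fold lower, and Tgtp1 alone passed 1.25-fold (1.33-fold), beside 2.89% of all genes. The Ifit, Oas and Isg15 median was 1.04-fold lower.

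After 6 h all 15 GTPases were lower under the label Zak-deficient, where 53.1% of all genes were. None passed 2-fold, beside 0.126% of all genes that were 2-fold lower and 0.116% higher. The median GTPase was 1.33-fold lower, from Gbp3 (1.13-fold) to Tgtp2 (1.90-fold), while the median over all genes was -0.02 on the log2 scale. By a 1.25-fold rule chosen after the data were seen, 11 of the 15 were lower, beside 7.06% of all genes. All 8 Ifit, Oas and Isg15 genes were lower as well, by a median of 1.20-fold, as were 39 of all 45 members. The gap between both groups was -0.15 on the log2 scale. At 6 h the list as a whole was thus lower, not the GTPases alone. The myeloid marker sum (9.51 and 6.75 FPKM) and the NK cell marker sum (25.0 and 18.4) were lower under the label Zak-deficient at this time as well, and their part in the result was not tested.

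At 48 h the GTPases were again all lower, 15 of 15, where 53.9% of all genes were, and none passed 2-fold on log2(FPKM+1). In plain FPKM Iigp1 was over 2-fold apart, at 6.32 in WT and 2.96 under the label Zak-deficient. The median was 1.31-fold lower, with Iigp1 (1.85-fold), Tgtp2 (1.74-fold), Gbp2 (1.63-fold), Tgtp1 (1.60-fold) and Igtp (1.49-fold) the most apart and Gbp8 (1.14-fold) the least. By the 1.25-fold rule 10 of 15 were lower, beside 2.19% of all genes. The Ifit, Oas and Isg15 genes were lower in 4 of 8, with a median log2 ratio of 0.00, and every GTPase lay below that median. Most genes of that group were under 1 FPKM at this time, so the added 1 FPKM held their ratios close together. The gap was -0.38, but it was -0.62 between group means and -1.30 with a filter at a mean of 5 FPKM, which leaves Ifit2 and Isg15 alone in that group. The myeloid and NK cell marker sums were low in both libraries at 48 h (2.37 under the label Zak-deficient against 1.26 FPKM in WT, and 3.11 against 2.99). Their part in the 48 h result was not tested either.

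The comparisons at 6 h and 48 h share no library. All 15 GTPases were lower at both times, beside 28.9% of all genes, against 4 of the 8 Ifit, Oas and Isg15 genes (Ifit3, Oas2, Oas3 and Oasl2) and 9 of the 22 other members. Counting rest as well, 12 of the 15 GTPases were lower at all 3 times, beside 16.4% of all genes. Ifih1 and Isg20 were the 2 members higher at both stimulated times, beside 21.4% of all genes. With the 1.25-fold rule at both times the GTPases counted 8 (Gbp2, Gbp4, Gbp6, Irgm1, Igtp, Iigp1, Tgtp1 and Tgtp2), beside 0.735% of all genes, and Ifit3, Irf1 and Zbp1 were the other members. The count of 15 was the same under each rescaling of the libraries. Without the 6 GTPases listed as having near-identical copies it was 9 of 9. That list was not set by measured sharing: Gbp4, on the list, shared 17.4% of its 24-base sequences with other genes, and Igtp, which was kept, shared 18.1%. The genes are not independent: several lie side by side in clusters, some share sequence, and all are read from the same 1 library per label and time.

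**Figure D4:**
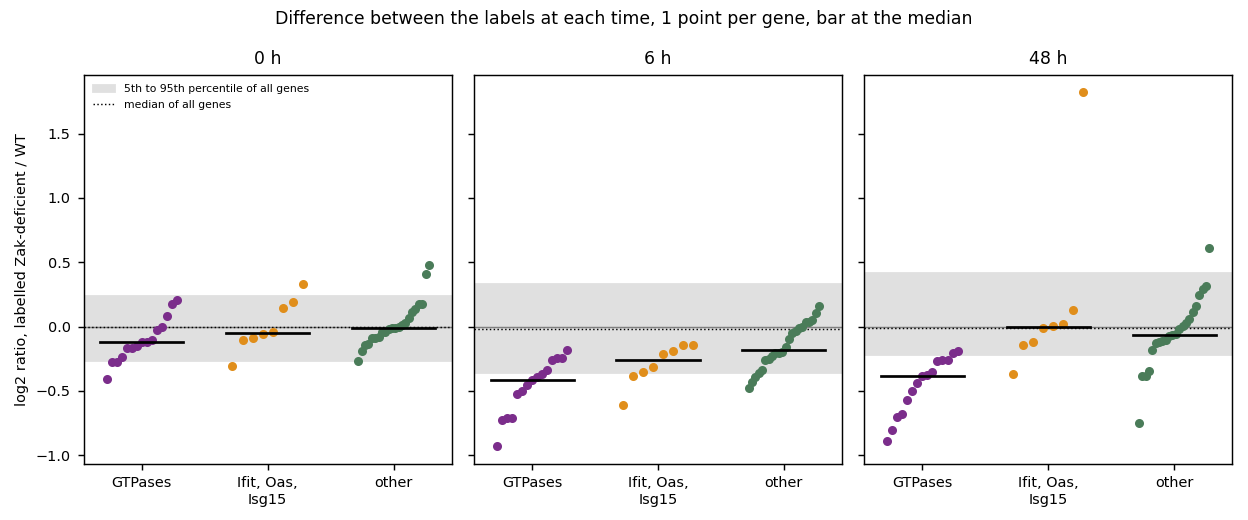
Log2 ratio of the library labelled Zak-deficient to WT at 0, 6 and 48 h for GTPases, Ifit, Oas and Isg15 genes and other members, 1 point per gene, with a bar at each median; the grey band spans the 5th to the 95th percentile of all 10347 genes. GTPase points lie below 0 at 6 h and 48 h, and the high point at 48 h is Isg15 at 1.82.

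Each stimulated level was also set against its own resting library, as a signed log2 change. At 6 h this change was less positive or more negative under the label Zak-deficient than in WT in all 15 GTPases, beside 50.6% of all genes, with a median difference of -0.30. At 48 h it was so in 14 of 15 (all but Gbp9), beside 48.9%, with a median of -0.41. The count mixes genes that went up less, such as Iigp1, with genes that went down further, such as Gbp8 and Irgm2 at 6 h and Gbp7 at 48 h. For the Ifit, Oas and Isg15 genes these counts were 8 of 8 and 5 of 8, with Ifit2 and Ifit3 among those that went down further at 6 h. By the 2-fold rule, 6 members rose at 6 h in WT (13.3%, against 8.93% of all genes) and none fell (1.39% of all genes). Besides Gbp5, Gbp6, Iigp1, Tgtp1 and Tgtp2 these included Ifitm2. The count of 6 was 0 with a pseudocount of 5 FPKM and 3 without the members listed as having near-identical copies, which leaves out Gbp6, Tgtp1 and Tgtp2. Under the label Zak-deficient Gbp5 rose and Ifit2 fell (9.08% and 1.52% of all genes). Responses at both times use the same resting libraries.

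Between 6 h and 48 h 5 members rose in WT (9.32% of all genes) and 10 fell (6.14%), and under the label Zak-deficient 5 rose (10.8%) and 6 fell (6.55%). Gbp2 and Gbp5 rose in this interval under both labels, and Tgtp2 was the GTPase that fell, by 2.38-fold in WT and 2.18-fold under the other label.

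The interferon genes themselves were barely detected. Ifng was at 0 FPKM in WT and 0.05 under the label Zak-deficient at 0 h, 0.25 and 0.10 at 6 h, and 0.23 and 0.05 at 48 h, and the 3 interferon genes measured of 10 listed summed to no more than 0.36 FPKM in any library. Of 16 receptor, kinase and STAT genes, 15 had a mean of 1 FPKM or more, of which 3 rose and 5 fell by 48 h in WT (17.8% and 12.3% of all genes) and 2 rose and 4 fell under the other label (18.4% and 12.0% of all genes). Ifngr1, the ligand-binding chain of the interferon gamma receptor, stood at 444.5 and 513.9 FPKM at 0 h, 237.5 and 224.8 at 6 h, and 33.3 and 33.5 at 48 h. Ifngr2, its partner, was at 48.8 and 52.9, then 34.5 and 33.8, then 11.7 and 13.1. Both receptor chains fell to like levels under both labels.

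Ifnar1, a chain of the type I receptor, was at 22.6 FPKM in WT and 33.8 under the other label at 48 h. Socs1, an inhibitor of JAK kinases, rose by 6 h from 4.45 to 30.8 FPKM in WT and from 4.88 to 36.4 under the other label. The phosphatase gene Ptpn6 rose 6.80-fold and 7.25-fold by 48 h. None of these genes differed 2-fold between the labels. Of 14 genes that act in the induction of type I interferon, 12 had a mean of 1 FPKM or more; by 48 h 2 of them fell in WT (12.3% of all genes) and 1 under the other label (12.0%), both near the share of all genes, and none rose under either (17.8% and 18.4%). Ikbke, a kinase of IRF factors, was at 192.4 and 181.3 FPKM at rest and at 44.0 and 41.7 at 48 h.

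Of 59 further interferon-stimulated genes, 48 had a mean of 1 FPKM or more. By 48 h 6 of them rose (12.5%) and 13 fell (27.1%) under each label, beside 17.8% and 12.3% of all genes in WT and 18.4% and 12.0% under the label Zak-deficient. Phf11b rose from 10.95 to 101.1 FPKM in WT and from 7.99 to 90.9 under the other label, and Cd274 (PD-L1) from 6.60 to 46.1 and from 7.44 to 50.1. Samd9l, an antiviral factor, fell from 30.8 to 4.31 and from 29.2 to 4.69. Between the labels Slfn5 was the only one at 2-fold, 1.48 FPKM in WT and 4.82 under the label Zak-deficient at 48 h, a count of 1 in 48 (2.1%) beside 1.80% of all genes. At 6 h 32 of these 48 were lower under that label, beside 53.1% of all genes, with a median log2 ratio of -0.12. At 48 h 28 were, beside 53.9% of all genes and near that share, with a median of -0.01.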

How the data were processed

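RNA was sequenced from 6 libraries, 1 per genotype and time. The values are FPKM, deposited by the authors as 1 table with 1 column per library. The submitters' processing notes name Bowtie, RSEM and mm10, without a version. Of 18446 gene IDs, 18326 matched a symbol in the RefSeq table (GRCm38.p6). Differences were taken on log2(FPKM+1) without rescaling, over the 10347 genes whose mean reached 1 FPKM, and counted at 2-fold. No test was fitted, since there were no replicates. The members and lists were chosen with earlier results of these data known. Every member could be named, and from each other list at most 3 genes per comparison with a mean of 5 FPKM or more and the largest change. Shared sequence was the share of 24-base sequences of GENCODE M21 transcripts that occur in another gene. The worth of 1 fragment came from the lowest step of FPKM times length in genes with 1 transcript, so fragment numbers are approximate. Alternatives changed the pseudocount, filter, scaling, fold rule or members. The calculation was tested on simulated data, with a shift larger than 2-fold in genes of 5 FPKM or more in resting WT cells. Smaller differences and shifts in lower genes were not covered by that test. Calculations were made in pandas 2.3.3 and numpy 2.4.6 under Python 3.11.15, with plots from matplotlib 3.10.9.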

Additional observations from a re-analysis of the deposited data

Results flagged for a closer look

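In 3 members the difference between the labels went opposite ways at 2 times, by 1.25-fold or more each way. With 1 library per group this was not tested. For Isg15 the log2 ratio of the library labelled Zak-deficient to WT was -0.35 at 6 h and 1.82 at 48 h. For Rtp4 it was -0.48 at 6 h and 0.61 at 48 h, where the values were 0.94 and 1.96 FPKM, about 18 and 36 fragments. For Ifitm3 it was 0.41 at 0 h and -0.75 at 48 h, with 1.0 and 1.65 FPKM and then 2.18 and 0.89, about 11 and 18 and then 25 and 9 fragments. Isg15 and Rtp4 carry none of the 24-base sequences found in 50 or more genes, and neither does Ifitm3.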

How the results depend on the processing

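Of 240 values recomputed under the alternatives, 205 stayed within 1.5 times the reported count or within 1.5-fold of the reported gap, 35 moved, and no gap between the groups changed sign. A gap is a log2 difference, and 1.5-fold refers to the ratio it stands for. The reported gaps between the labels are smaller than that, so they could have vanished and still counted as unmoved. At 6 h the gap between the labels ran from -0.06 to -0.24 over the alternatives. Counts refer to the 45 members, by the 2-fold rule unless stated.

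A pseudocount of 5 FPKM gave 4 members higher and 4 lower at 48 h in WT, 4 lower under the label Zak-deficient, none higher at 6 h under either label and none lower at 6 h under the label Zak-deficient, and gaps at 48 h of 0.64 in WT and 0.31 under the other label. A pseudocount of 0.1 FPKM gave 3 members lower under the label Zak-deficient at 48 h than in WT, and 2 higher at 6 h against rest. Without members below a mean of 5 FPKM, 5 fell by 48 h in WT, the 48 h gap under the label Zak-deficient was 0.36, and the gap between the labels at 48 h was -1.30, since Ifit2 and Isg15 alone were then left in the Ifit, Oas and Isg15 group. Scaling to a common sum or to the upper quartile gave 1 member lower at 6 h in WT.

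A 1.5-fold rule gave 10 higher and 3 lower at 6 h in WT, 6 and 5 under the label Zak-deficient, 16 and 20 lower at 48 h in WT and under that label, and between the labels 5 lower at 6 h, 5 lower at 48 h and 2 higher at 48 h. A 4-fold rule gave none higher at 6 h under either label and 0 lower under the label Zak-deficient, 3 higher and 2 lower at 48 h in WT, 2 lower at 48 h under the label Zak-deficient, and 0 higher between the labels at 48 h.

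Without members listed as having near-identical copies, 3 rose at 6 h in WT, the 48 h gap under the label Zak-deficient was 1.81, and 9 GTPases, all that were left, were lower at both stimulated times. Without members whose transcripts carry a 24-base sequence found in 50 or more genes, an alternative added after seeing the data, 5 fell by 48 h under the label Zak-deficient. Scaling to a common sum moved the median log2 change of all genes at 48 h under the label Zak-deficient from 0.06 to -0.06. Scaling to the upper quartile turned the 48 h median of the Ifit, Oas and Isg15 group between the labels from -0.0047 to 0.0012. No analysis paired by replicate was made because the labels give no replicate numbers and there was 1 library per group, so no replicate could be left out. Pairing the genotypes over the 3 times, which are different conditions, was not used here. Values under 1 FPKM rest on few fragments.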
